A study of Mus musculus with 15 samples.

Results

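Transcripts of 9 genes that act close to the T cell receptor were followed in CD8+ T cells with and without Susd2: the adaptors Lat and Lcp2, the phospholipase Plcg1, the kinases Fyn, Txk and Tec, and the brakes Ptpn22, Cd5 and Cblb. The genes were taken by name from a table of raw counts for 27019 genes, and all 9 were among the 16057 genes with enough counts to be tested. The cells came from spleens of OT-I mice on the C57BL/6 strain, 8 to 10 weeks old, whose T cells carry a transgenic receptor for the ovalbumin peptide OVA257-264. The mice were wild-type (WT) or lacked the gene for Susd2, a membrane protein with a sushi domain (Susd2-/-), and the labels say no more of how the gene was removed. The 4 groups were WT day 0 and Susd2-/- day 0, whose cells were untreated, and WT day 3 and Susd2-/- day 3, whose splenocytes had been stimulated with the peptide for 3 days. Each group held 2 libraries of poly(A) RNA from cells enriched with a magnetic bead kit, so RNA of other spleen cells can be present. No label ties the libraries of a group to separate mice, so each p-value below rests on how far these libraries differ from each other, and part of that may be technical.

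When the T cell receptor binds peptide, the kinase LCK, helped by FYN, starts a phosphorylation cascade that reaches LAT, a membrane adaptor that serves as the platform of the signal. LAT and the cytosolic adaptor SLP-76, the product of Lcp2, hold phospholipase C gamma 1 in place while Tec family kinases, TXK and TEC among them, activate it, and the enzyme then makes the messengers that release calcium and switch on RAS and protein kinase C. Several proteins restrain this step: the phosphatase PTPN22 removes activating phosphates from LCK and ZAP-70, the surface receptor CD5 dampens the signal, and the ubiquitin ligase CBL-B marks signalling proteins for removal or inactivation.

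Library totals ran from 26829807 to 53846911 counts. Susd2 itself had 90 and 80 counts in the WT day 0 libraries and 1 and 3 in the Susd2-/- day 0 libraries, a log2 fold change of -5.31 ± 0.701 (SE; adjusted p = 2.32e-05). At day 3 it had 16 and 10 counts in WT and 0 and 2 in Susd2-/- (adjusted p = 0.112). The biological coefficient of variation between libraries of a group, which leaves out counting noise, was 5.35% at day 0 and 10.0% at day 3. It is the root of edgeR's common dispersion with each day fitted alone. Both days shared an estimate of the spread in the test described below. Intervals and p-values at day 3 therefore rest partly on the day 0 libraries, and the reverse. Since the day 3 libraries varied more, day 3 intervals can be too narrow and day 3 p-values too small. For day 0 the shared estimate acts the other way. Levels below are CPM, which are counts scaled to one common total with TMM-scaled library sizes, in the order of the libraries' numbers. Fold changes are log2 values from edgeR's quasi-likelihood test with 95% intervals, and a gene is called higher, lower, risen or fallen where its Benjamini-Hochberg adjusted p over all 16057 genes is below 0.05.

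The 9 genes lie on 8 chromosomes of the GRCm38 build, and only Txk and Tec are neighbours. Lat spans chr7:126363824-126369570 on the minus strand and Lcp2 spans chr11:34046920-34092295 on the plus strand. Plcg1 spans chr2:160731300-160775760 and Fyn spans chr10:39368855-39565381, both on the plus strand. Txk at chr5:72695978-72752777 and Tec at chr5:72755716-72868483 are both on the minus strand with 2938 bases between them. Ptpn22 at chr3:103859795-103912247 and Cblb at chr16:52031225-52208048 are on the plus strand, and Cd5 at chr19:10717116-10739002 is on the minus strand. Counts were taken over the whole gene, so a value here does not tell one transcript form from another. Exons of Lcp2, Plcg1 and Fyn overlap genes on the opposite strand, and the strand setting of the counting is not given in the sources used here. The overlapping gene at Lcp2, 4930469K13Rik, held 155 counts over all 8 libraries, and those at Plcg1, Gm27206 and Zhx3, held 107 and 5301.

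Before the peptide, 5 of the 9 genes were higher in Susd2-/- than in WT cells and none was lower, with Ptpn22 and Cblb, both brakes, showing the largest differences. Over all genes tested, 11.5% were higher and 12.1% were lower in this comparison. The median log2 fold change was 0.18 over the 9 genes and 0.01 over all genes. Markers of monocytes and macrophages were also higher in those Susd2-/- libraries (summed level of 15 markers 163 to 177 CPM, against 86.5 to 87.1 in WT), and their part in the result was not tested. After 3 days with the peptide 1 of the 9, Txk, was lower in Susd2-/- cells, against 0.0872% of all genes lower and 0.0498% higher. With the peptide 3 of the 9 rose in WT (36.2% of all genes rose) and 6 fell (39.0% of all genes fell). In Susd2-/- cells 2 rose (36.7% of all genes), 6 fell (39.7%) and Cd5 did neither. None of the samples is an untreated day 3 culture, so the peptide and the time in culture cannot be told apart.

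**Figure D1:**
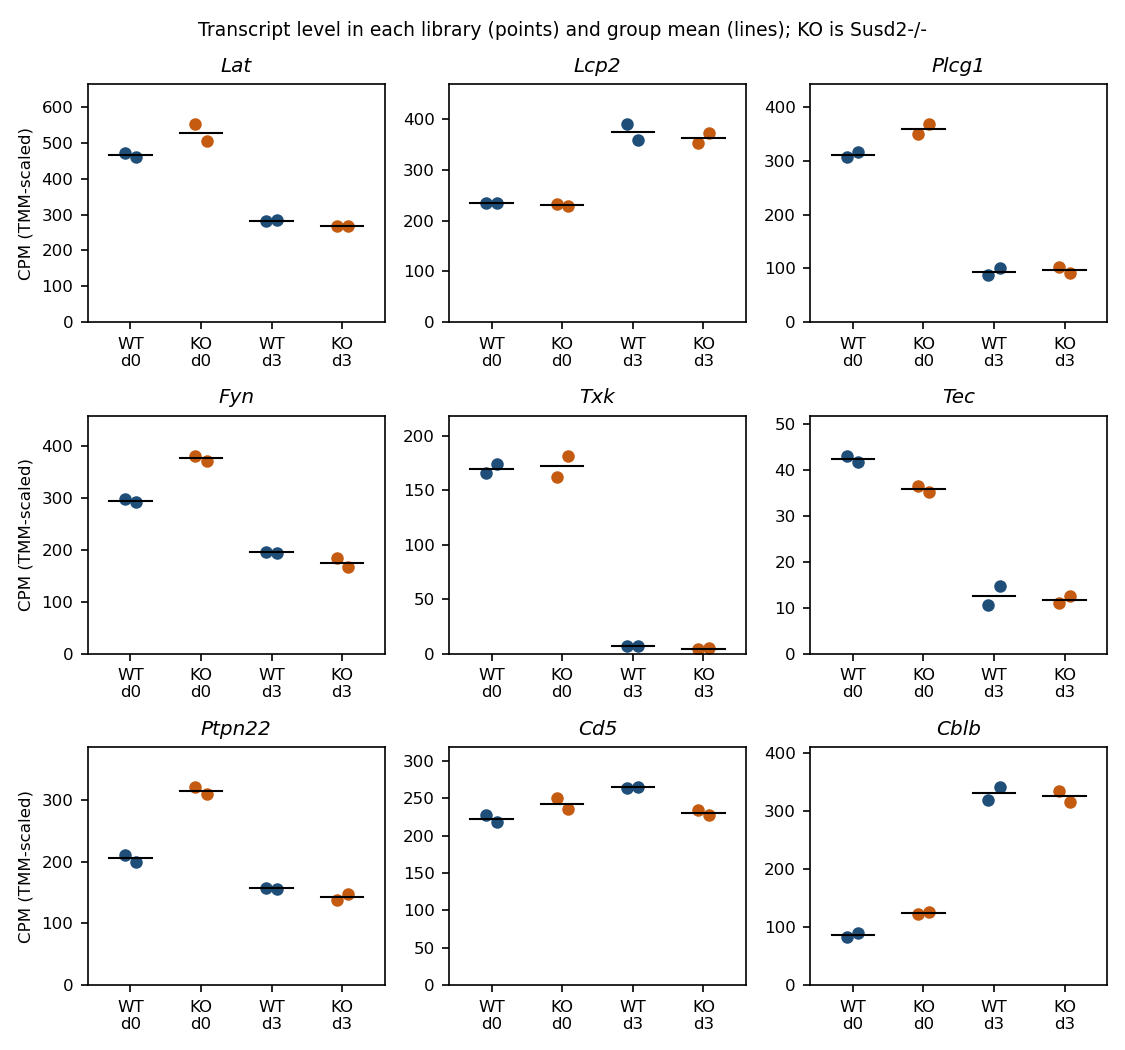
Transcript level in CPM (vertical axes, each from 0) of the 9 genes in the 8 libraries, with a point for each library, a line for the mean of each group, WT in blue and Susd2-/- (KO) in orange, at day 0 (d0) and day 3 (d3). Txk drops from between 162 and 182 CPM at day 0 to between 4.34 and 7.33 at day 3, Cblb rises from between 83.2 and 126 to between 315 and 341, and Ptpn22 is highest in Susd2-/- cells at day 0.

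Lat, the membrane platform, had 473 and 460 CPM in WT and 553 and 505 in Susd2-/- libraries at day 0. Both Susd2-/- libraries were above both WT libraries, and the difference was 0.18 ± 0.0604 (95% interval 0.05 to 0.31, adjusted p = 0.0355). At day 3 Lat had 281 and 285 CPM in WT and 268 and 267 in Susd2-/-, a difference of -0.08 (-0.21 to 0.05, adjusted p = 0.797). Lat fell with the peptide in both genotypes, by 0.72 ± 0.0609 on the log2 scale in WT (adjusted p = 2.27e-09) and by 0.98 ± 0.061 in Susd2-/- (adjusted p = 1.9e-11). Its day 0 difference lost the call without WT day 0 library 3 (adjusted p = 0.266) or 4 (0.297), Susd2-/- day 0 library 3 (0.521), or WT day 3 library 1 (0.0601) or 2 (0.0682).

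Lcp2, which encodes the cytosolic adaptor SLP-76, had 234 CPM in each WT library and 233 and 229 in the Susd2-/- libraries at day 0. The 2 genotypes differed there by -0.02 (95% interval -0.15 to 0.11, adjusted p = 0.871). With the peptide the values were 390 and 359 in WT and 353 and 373 in Susd2-/-, and the groups overlapped (difference -0.04, interval -0.17 to 0.09, adjusted p = 0.926). Lcp2 was the adaptor that rose, by 0.68 ± 0.0619 in WT (adjusted p = 7.59e-09) and 0.65 ± 0.0618 in Susd2-/- (adjusted p = 1.23e-08). The transcripts of the 2 adaptors of one signalling complex moved in opposite directions with the peptide.

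Plcg1, the phospholipase that the adaptors recruit, had 307 and 317 CPM in WT and 350 and 369 in Susd2-/- libraries at day 0. The Susd2-/- libraries were both higher, by 0.20 ± 0.0725 (95% interval 0.05 to 0.36, adjusted p = 0.0478). Its adjusted p was the highest of the 5, and the call was lost without any of the day 0 libraries, WT 3 (adjusted p = 0.342) or 4 (0.172) or Susd2-/- 3 (0.109) or 4 (0.262). At day 3 the levels were 86.9 and 100 CPM in WT and 102 and 91.6 in Susd2-/-, and the groups overlapped (difference 0.05, interval -0.11 to 0.21, adjusted p = 0.928). The fall with the peptide was 3.33-fold in WT (log2 -1.74 ± 0.0756, adjusted p = 1.13e-13) and 3.71-fold in Susd2-/- (log2 -1.89 ± 0.0755, adjusted p = 2.94e-14).

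Fyn, the Src family kinase that works beside Lck, had 297 and 291 CPM in WT and 381 and 371 in Susd2-/- libraries at day 0. This was a clear separation, with a log2 fold change of 0.35 ± 0.0626 (95% interval 0.22 to 0.49, adjusted p = 0.000429). At day 3 the order was turned, with 195 and 194 CPM in WT and 184 and 166 in Susd2-/-, but the difference of -0.15 (interval -0.28 to -0.02) did not pass over all genes (adjusted p = 0.569). Fyn fell by 0.60 ± 0.0631 on the log2 scale in WT (adjusted p = 5.9e-08) and by 1.10 ± 0.0634 in Susd2-/- (adjusted p = 6.03e-12). Per kilobase of exon, Fyn made up 21.0% of the Lck and Fyn transcripts in WT day 0, 23.3% in Susd2-/- day 0, 21.9% in WT day 3 and 20.9% in Susd2-/- day 3, so the pair kept nearly the same composition while both levels dropped.

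Txk, a Tec family kinase also known as Rlk, showed the largest change of the 9 genes. It had 166 and 174 CPM in WT and 162 and 182 in Susd2-/- libraries at day 0, and the genotypes overlapped (difference 0.02, 95% interval -0.13 to 0.17, adjusted p = 0.893). At day 3 it had 7.33 and 7.22 CPM in WT and 4.34 and 4.79 in Susd2-/- libraries, from 227 and 204 counts in WT and 129 and 243 in Susd2-/-. The fall was 23.3-fold in WT (log2 -4.54 ± 0.0915, adjusted p = 1.38e-18) and 37.4-fold in Susd2-/- (log2 -5.22 ± 0.0946, adjusted p = 3.85e-19). By fold change Txk ranked 825 from the bottom of the 16057 genes in WT and 624 from the bottom in Susd2-/-. The remaining transcript was 1.58-fold lower in Susd2-/- than in WT at day 3 (log2 -0.66 ± 0.11, interval -0.89 to -0.43, adjusted p = 0.0202), the only one of the 9 called there. The 2 sequencing lanes of Susd2-/- day 3 library 2, scaled by lane totals alone, gave 3.49 and 5.52 CPM for Txk, a ratio of 1.58 and as wide as that difference, and the other day 3 lanes gave 3.69 and 4.44 in Susd2-/- and 6.85, 6.72 and 6.74 in WT. Without Susd2-/- day 3 library 2 the adjusted p was 0.0628, with only the day 3 libraries in the fit 0.758, and with limma voom 0.292, all with the same direction.

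Tec, the founding kinase of the family, had 43.2 and 41.7 CPM in WT and 36.5 and 35.2 in Susd2-/- libraries at day 0. The Susd2-/- libraries were both lower, but the difference of -0.24 ± 0.123 (95% interval -0.50 to 0.01) did not pass the test (adjusted p = 0.168). At day 3 it had 10.6 and 14.7 CPM in WT and 11 and 12.5 in Susd2-/-, with overlapping groups (difference -0.09, interval -0.38 to 0.19, adjusted p = 0.927). Tec fell 3.37-fold in WT (log2 -1.75 ± 0.131, adjusted p = 4.13e-10) and 3.03-fold in Susd2-/- (log2 -1.60 ± 0.13, adjusted p = 1.3e-09). Fewer cells of a type and less RNA per cell cannot be told apart in bulk libraries such as these.

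The exons annotated to Txk cover 10955 bases in all, but its principal transcript has 2344, so its level beside Tec was read on both lengths. Txk exceeded Tec per kilobase of exon in every day 0 library (1.31 to 1.77 times) and was below it in every day 3 library (0.131 to 0.236 times), and the same turn held on principal transcript lengths (4.35 to 5.87 times, then 0.435 to 0.783 times).

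**Figure D2:**
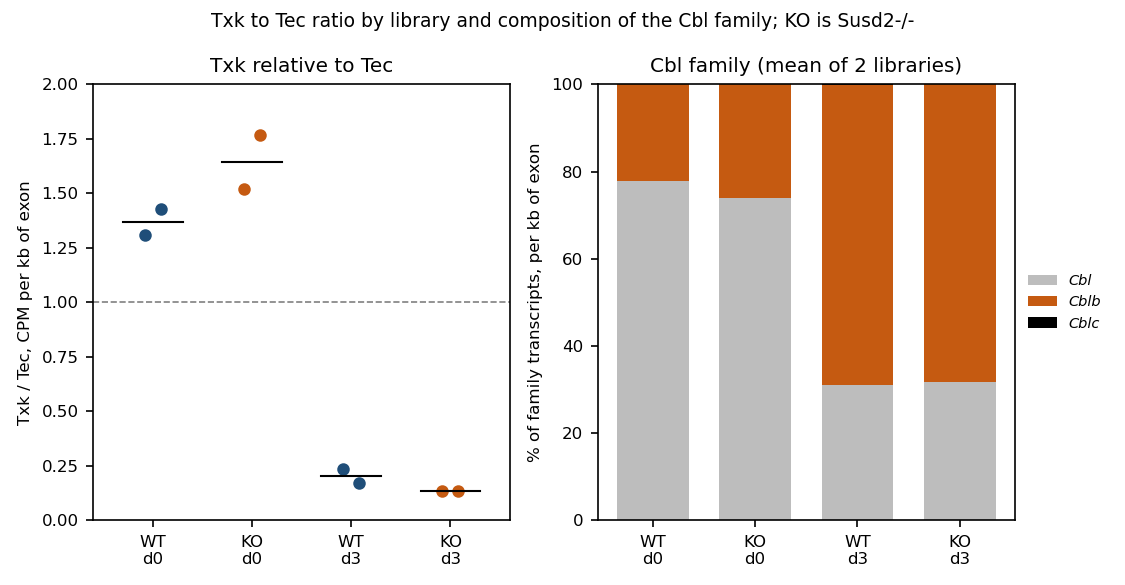
Left, ratio of Txk to Tec in CPM per kilobase of exon (vertical axis from 0) with a point for each library, a line for each group mean and a dashed line at equal levels; right, share of each gene in Cbl family transcripts (percent of CPM per kilobase of exon, mean of 2 libraries), in the 4 groups (KO is Susd2-/-; d0 and d3 are day 0 and day 3). Txk lies above Tec at day 0 (1.31 to 1.77 times) and below it at day 3 (0.131 to 0.236 times), and Cblb goes from 22.1% to 68.8% of the Cbl family in WT.

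Ptpn22, the phosphatase that acts on LCK and ZAP-70, differed most between genotypes before the peptide. It had 211 and 200 CPM in WT and 321 and 309 in Susd2-/- libraries, a 1.53-fold difference (log2 0.62 ± 0.0617, 95% interval 0.49 to 0.75, adjusted p = 1.11e-06). After the peptide the values were 158 and 156 in WT and 138 and 147 in Susd2-/-. The Susd2-/- libraries were now both lower, but not past the test (difference -0.14, interval -0.27 to -0.01, adjusted p = 0.593). Ptpn22 fell by 0.39 ± 0.0621 in WT (adjusted p = 1.45e-05) and by 1.15 ± 0.0623 in Susd2-/- (adjusted p = 2.54e-12), on the log2 scale.

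Cd5, the inhibitory surface receptor, was the gene that moved least with the peptide. It had 227 and 218 CPM in WT and 251 and 235 in Susd2-/- libraries at day 0, which did not overlap but did not pass the test (difference 0.13, 95% interval 0.0019 to 0.26, adjusted p = 0.139). At day 3 it had 264 and 265 CPM in WT and 234 and 227 in Susd2-/-. There the Susd2-/- libraries were both lower, by 0.20 on the log2 scale (-0.20 ± 0.0607, interval -0.33 to -0.07), with an unadjusted p of 0.00394 from edgeR and an adjusted p of 0.326. Cd5 rose with the peptide in WT (0.25 ± 0.0609, adjusted p = 0.00105) and was not called in Susd2-/- (-0.08, interval -0.21 to 0.05, adjusted p = 0.252).

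Cblb, the ubiquitin ligase, was the other brake with a clear difference at day 0, with 83.2 and 89.3 CPM in WT and 122 and 126 in Susd2-/- libraries. The difference was 1.44-fold (log2 0.53 ± 0.066, 95% interval 0.39 to 0.67, adjusted p = 1.34e-05). Day 3 levels were 319 and 341 CPM in WT and 335 and 315 in Susd2-/-, and the groups overlapped (difference -0.02, interval -0.16 to 0.11, adjusted p = 0.986). Cblb had the largest rise of the 9 genes with the peptide, 3.83-fold in WT (log2 1.94 ± 0.067, adjusted p = 2.65e-15) and 2.61-fold in Susd2-/- (log2 1.39 ± 0.0655, adjusted p = 2.9e-13). Its relative Cbl, the other ligase of the family in T cells, fell from 358 ± 2.24 to 176 ± 3.43 CPM in WT (SD, n = 2; log2 -1.03 ± 0.0631, adjusted p = 1.84e-11). Per kilobase of exon Cblb went from 22.1% to 68.8% of Cbl family transcripts in WT and from 26.1% to 68.2% in Susd2-/-, and on principal transcript lengths from 29.2% to 76.1% and from 33.9% to 75.7%. The more abundant ligase transcript of the family was Cbl at day 0 and Cblb at day 3, in both genotypes and with both lengths.

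**Figure D3:**
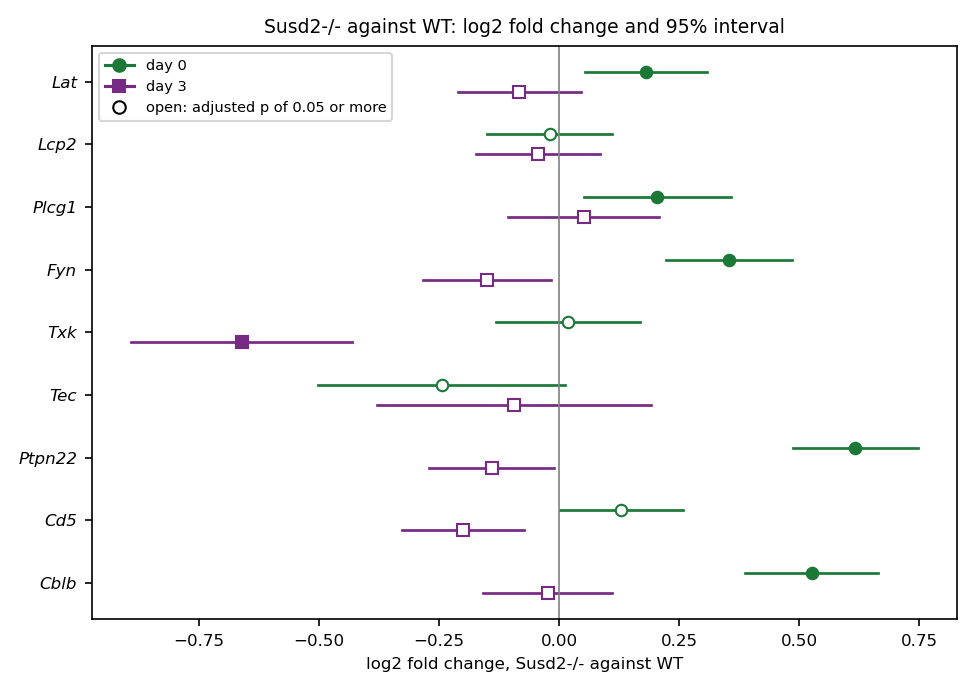
Log2 fold change of Susd2-/- against WT (horizontal axis) for the 9 genes with 95% intervals, at day 0 (green circles) and day 3 (purple squares), filled where the adjusted p is below 0.05. At day 0 Ptpn22 (0.62), Cblb (0.53), Fyn (0.35), Plcg1 (0.20) and Lat (0.18) are filled and to the right of 0, and at day 3 only Txk (-0.66) is filled.

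The genotype difference changed between the days for 6 of the 9 genes, always towards lower values at day 3 than at day 0. In this interaction 6.88% of all genes were called lower and 6.60% higher. The day 3 difference minus the day 0 difference was -0.76 ± 0.0875 for Ptpn22 (adjusted p = 1.93e-05), -0.68 ± 0.131 for Txk (0.00195), -0.55 ± 0.0917 for Cblb (0.000582), -0.50 ± 0.0889 for Fyn (0.000937), -0.33 ± 0.086 for Cd5 (0.0155) and -0.26 ± 0.0856 for Lat (0.048). Ptpn22, Fyn, Cblb and Lat were called higher in Susd2-/- at day 0 and not called at day 3, whereas Txk was not called at day 0 and was lower at day 3. The values for Lcp2 (-0.02, adjusted p = 0.907), Tec (0.15, 0.66) and Plcg1 (-0.15, 0.375) were not called.

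The calls for Lat and Cd5 in the interaction depended on single libraries. That of Lat was lost without any 1 of WT day 0 library 3 or 4 (adjusted p = 0.319 and 0.24), Susd2-/- day 0 library 3 (0.497), WT day 3 library 1 or 2 (0.193 and 0.21) or Susd2-/- day 3 library 1 or 2 (0.0629 and 0.107). That of Cd5 was lost without WT day 0 library 3 or 4 (0.144 and 0.131), Susd2-/- day 0 library 3 (0.241), WT day 3 library 1 or 2 (0.0778 and 0.0689) or Susd2-/- day 3 library 2 (0.0519).

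The WT day 0 libraries differed from each other by little more than sequencing lanes of 1 library did, with a chi-square statistic of 3.37 for each degree of freedom against 3.01 to 3.17 between lanes. It was 6.3 between the Susd2-/- libraries of day 0, 12.5 between the WT and 16 between the Susd2-/- libraries of day 3. Another fit counted the day 0 libraries of each genotype as 1, the Susd2-/- pair included although it differed by more than lanes did. Its day 0 comparison sets 1 sample against 1, and its p-values rest on the spread between the day 3 libraries, which the day 0 samples are assumed to share. In it Ptpn22 (adjusted p = 0.00808) and Cblb (0.0192) were higher in Susd2-/- at day 0, while Fyn (0.0958), Lat (0.37) and Plcg1 (0.466) kept their direction without passing the test. In the interaction of that fit Ptpn22 (0.0146) and Txk (0.0491) passed, and Cblb (0.0555), Fyn (0.0793), Cd5 (0.206) and Lat (0.31) did not.

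**Figure D4:**
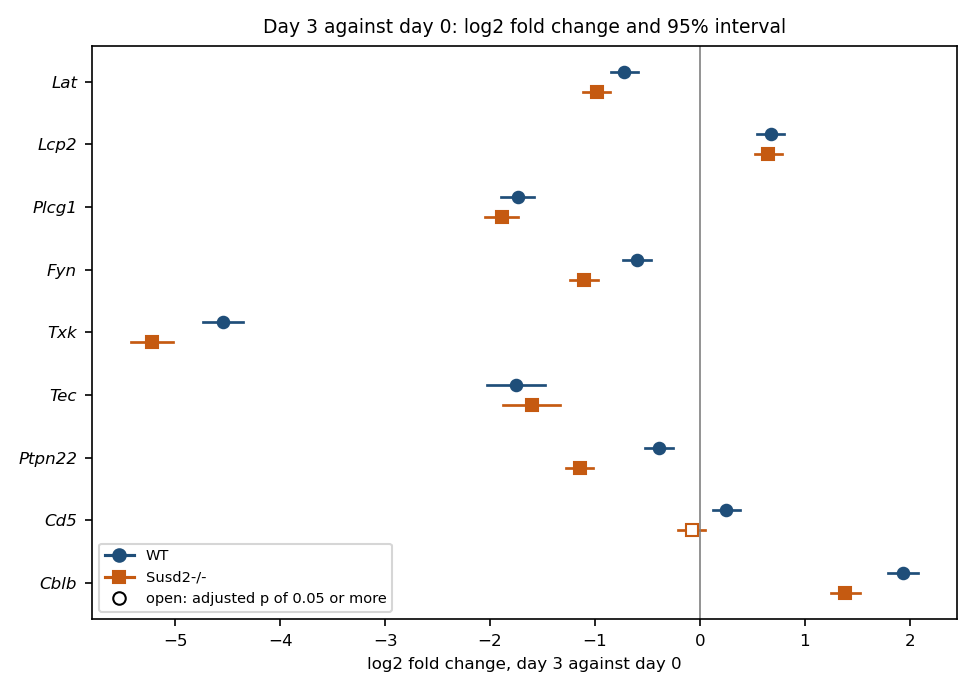
Log2 fold change of day 3 against day 0 (horizontal axis) for the 9 genes with 95% intervals, in WT (blue circles) and Susd2-/- (orange squares), filled where the adjusted p is below 0.05. Txk stands farthest to the left (-4.54 and -5.22), Cblb farthest to the right (1.94 and 1.39), and Cd5 in Susd2-/- is open at -0.08.

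Levels of different genes can be compared only per length. In WT day 0 cells Lat was the most abundant of the 9, at 169 ± 3.35 CPM per kilobase of exon (SD, n = 2), and Cblb the least, at 8.23 ± 0.414. Between them lay Fyn (67.4 ± 1.01 CPM per kilobase), Lcp2 (52.5 ± 0.0535), Cd5 (45.1 ± 1.36), Plcg1 (39.7 ± 0.917), Ptpn22 (30.3 ± 1.12), Txk (15.5 ± 0.523) and Tec (11.3 ± 0.291). Each step in that order was larger than the SDs beside it, but the order of the middle genes rests on the exon length used. On principal transcript lengths Lat was again at the top (378 CPM per kilobase) and Tec and Cblb at the bottom (16 and 13), with Cd5 (108) second and Txk (72.5) above Lcp2 (64.3) and Plcg1 (61.0). In WT day 3 cells Lat (102 ± 0.962 CPM per kilobase of exon) remained the highest, and Plcg1 (11.9 ± 1.2), Tec (3.38 ± 0.76) and Txk (0.664 ± 0.00723) were the 3 lowest. The same genes stood at the top and in the last 3 places on principal transcript lengths, with 229, 18.3, 4.75 and 3.10 CPM per kilobase.

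Among the 9 genes, the closest profiles over the 8 libraries were those of Lat and Fyn, which differed by a root mean square of 0.0792 log2 units once each gene was centred on its own mean. Fyn and Ptpn22 followed at 0.119. Among 10068 other genes with an average log2 CPM of at least 1, Lat was closest to Bcl10 (0.0407) and Lck (0.0433), Fyn to Fbrs (0.0285) and Dync1h1 (0.052), and Ptpn22 to Pja1 (0.0529) and Mroh2a (0.0757). Lcp2 was closest to Mtpn (0.0254) and Idh3b (0.0347), Plcg1 to Hdhd5 (0.0576) and Vgll4 (0.061), Tec to St8sia4 (0.0844) and March2 (0.0948), and Cd5 to Ctdp1 (0.0368) and Gnb2 (0.0492). Cblb was closest to Myc (0.0723) and Hdlbp (0.0788). The closest genes to Txk, Klf3 (0.196) and Ampd3 (0.208), lay farther off than those of any other member. The measure is not scaled to the size of a gene's change, which was largest for Txk. By Pearson correlation Txk was as near to both genes (0.997) as other members were to theirs, and Cd5 had the lowest values (0.93 and 0.872). These distances describe the same 8 libraries and are dominated by the step between the days.

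Promoter sequence is shown for the 2 neighbouring kinases that fell, Txk and Tec, for Ptpn22, which differed most between genotypes, and for Lcp2, the adaptor that rose. The stretches are the bases before the gene starts of both RefSeq and GENCODE, from RefSeq promoters on GRCm38.p6, written 5′ to 3′ on the gene's strand. They cover chr5:72752778-72753027 (minus) for Txk, chr5:72868484-72868698 (minus) for Tec, chr3:103859545-103859794 (plus) for Ptpn22 and chr11:34046678-34046919 (plus) for Lcp2. Capitals mark every match, on either strand, to GGAAGT (an ETS factor core), CTTTGA (a TCF factor core) or CACCC (a KLF factor core).
Txk: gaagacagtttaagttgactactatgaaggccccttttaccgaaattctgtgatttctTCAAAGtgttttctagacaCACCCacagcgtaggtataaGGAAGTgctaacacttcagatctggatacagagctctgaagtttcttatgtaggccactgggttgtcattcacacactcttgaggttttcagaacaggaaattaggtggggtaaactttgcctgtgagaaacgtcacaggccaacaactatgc
Tec: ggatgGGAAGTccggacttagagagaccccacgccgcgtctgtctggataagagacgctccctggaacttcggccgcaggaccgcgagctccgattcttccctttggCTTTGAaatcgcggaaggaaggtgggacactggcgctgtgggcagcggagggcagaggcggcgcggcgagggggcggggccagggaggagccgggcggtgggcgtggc
Ptpn22: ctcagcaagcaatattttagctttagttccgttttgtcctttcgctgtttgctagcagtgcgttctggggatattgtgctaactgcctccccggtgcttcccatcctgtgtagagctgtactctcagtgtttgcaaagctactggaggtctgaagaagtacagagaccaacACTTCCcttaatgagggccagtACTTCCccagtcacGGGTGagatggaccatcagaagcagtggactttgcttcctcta
Lcp2: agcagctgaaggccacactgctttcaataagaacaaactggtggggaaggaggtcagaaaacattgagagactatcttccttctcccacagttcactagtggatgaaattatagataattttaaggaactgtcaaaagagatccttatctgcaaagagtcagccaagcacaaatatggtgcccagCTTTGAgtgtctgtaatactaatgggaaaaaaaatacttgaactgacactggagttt
Txk held 1 match to each of the 3 motifs, Tec 1 each to GGAAGT and CTTTGA, Ptpn22 2 to GGAAGT and 1 to CACCC, and Lcp2 1 to CTTTGA, with no overlap between matches. These short motifs are common: of 27025 RefSeq promoters, 20% held GGAAGT, 14.0% CTTTGA and 51.3% CACCC in the 250 bases before the start, and of the 9 genes 4, 4 and 5 did. TGTGGT (RUNX, 14.2% of promoters) and TGANTCA (AP-1, 6.87%) were in none of the 9 and CACGTG (E-box, 6.05%) in 1. For Fyn and Cblb the 250 bases before the RefSeq start lie inside the gene as GENCODE annotates it. Txk and Ptpn22 have 2 RefSeq starts listed, and only the first was used. A match is a description of these letters and does not show binding. The shared letters are few, and the G and C content of the stretches ranged from 40.1% in Lcp2 to 68.4% in Tec.

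The wider pathway was read through 113 other genes, of which 110 could be tested. The list of 12 genes known to be induced through the receptor, given below, was not part of this set. At day 0, 27 of the 110 were higher in Susd2-/- cells and 16 were lower, against 11.5% higher and 12.1% lower of all genes tested. At day 3 none was called. With the peptide 35 of the 110 rose and 60 fell in WT, against 36.2% and 39.0% of all genes. Upstream of the adaptors, 1 of 10 proximal kinases was higher at day 0, Zap70 (log2 0.18 ± 0.0644, adjusted p = 0.0494), while Lck, at 742 ± 6.51 and 832 ± 38.6 CPM (SD, n = 2), just missed (adjusted p = 0.0524). Among 23 adaptors and scaffolds 3 were higher, with Sh2d2a, an adaptor that binds LCK, at 190 ± 2.2 and 286 ± 7.21 CPM, and 7 were lower, with Sh2d1a, the adaptor SAP, at 42.1 ± 1.44 and 27.8 ± 2.48. Downstream, 8 of 34 effectors were higher, among them Itpr1, a calcium release channel (0.33 ± 0.0651), and 3 were lower.

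The other brakes went both ways at day 0, with more genes higher than lower in each list. Over all genes tested 11.5% were higher and 12.1% were lower. Of 16 phosphatase and lipid brakes 4 were higher, led by Inpp5d (SHIP1; 110 ± 1.82 CPM in WT and 164 ± 4.1 in Susd2-/-; SD, n = 2) and Ptpn6 (SHP-1; 319 ± 0.321 and 446 ± 28.7), and 2 were lower, Ptpn18 and Ptpn7. Of 17 receptor and adaptor brakes 7 were higher, led by Tnfaip3 (the NF-kB inhibitor A20; 620 ± 2.77 and 1740 ± 4.55 CPM) and Ctla4 (16.5 ± 0.0938 and 44.6 ± 1.5), and 3 were lower. Of 10 ubiquitin ligases and cofactors 4 were higher, and 1, Ndfip1, was lower. Of 12 genes known to be induced through the receptor, 10 were higher in Susd2-/- cells at day 0, among them Nr4a1 (81.3 ± 1.17 and 217 ± 5.73 CPM). In the interaction 9 of the 12 were lower, against 6.88% of all genes tested.

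Markers of other cells moved with the genotype at day 0, where the 5 members were higher. The summed level of 15 monocyte and macrophage markers was 86.5 to 87.1 CPM in WT and 163 to 177 in Susd2-/- libraries, 8 of the 15 were called higher, and none was at 0. At day 3 the sum was 9.33 to 11.9 CPM in WT and 7.48 to 10.9 in Susd2-/-, with Adgre1, Vcam1, C1qa, C1qc and Spic among the 7 of 15 at 0 in each genotype. The 12 B cell markers summed to 531 to 540 CPM in WT and 607 to 670 in Susd2-/- at day 0 (Ebf1 at 0 in WT). Most of that sum was Ighm, the IgM heavy chain, at a mean of 493 CPM in WT and 592 in Susd2-/- (adjusted p = 0.00443). Of the 12, 2 were higher and 10 were not called, with a median log2 difference of 1.14 against 0.00772 over all genes tested. The 6 CD4 T cell markers summed to 29.8 to 31 CPM in WT and 61 to 65.5 in Susd2-/- at day 0, and 2 of them were higher, Ctla4 and Il2ra, which also stand in the lists above. Cd4 itself had 11 and 4 counts in the WT and 12 and 12 in the Susd2-/- libraries (adjusted p = 0.658), and was at 0 in WT at day 3. The sum of the 6 at day 3 was 1380 to 1500 CPM in WT and 1470 to 1510 in Susd2-/-, so in WT it did not follow Cd4. The 9 NK cell markers summed to 71.5 to 72.0 and 56.1 to 60.1 CPM at day 0 (3 lower). The 11 CD8 T cell identity genes were all detected, with sums of 6300 to 6370 CPM in WT and 5380 to 5730 in Susd2-/- at day 0 (1 higher, Cd28, and 6 lower), and 3530 to 3690 and 3510 to 3650 at day 3. The part of these differences in the results for the 9 genes was not tested.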

How the data were processed

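The authors deposited raw counts per gene, as whole numbers that had not been normalized, per the file headers and values. Tools in the submitters' processing notes are Subread 2.0.1, HISAT2 2.1.0, fastp 0.23.2 and SAMtools 1.10, with GRCm38 as the build. How strand and multiply aligned reads were handled, and with which annotation release, is not stated. The library kit was stranded, per the labels' protocols. The 15 columns were sequencing lanes of 8 libraries (7 with 2 lanes, 1 with 1), and lanes were summed, since the library is the unit of replication; intervals cover the spread between libraries only.

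Genes were kept with filterByExpr (16057 of 27019, at least 99.9% of counts). One edgeR 4.0.16 model (R 4.3.3; TMM, robust glmQLFit, glmQLFTest) held the 4 groups, leaving 4 residual degrees of freedom, with Benjamini-Hochberg adjustment across all 16057 genes. Each SE is the size of the log2 fold change over the root of its F statistic. The procedure was tested on simulated counts with changes placed only in the day 0 comparison and the same spread in all groups. That test does not cover the day 3 or interaction calls, since the real day 3 libraries varied more. Alternatives were DESeq2 1.42.0 and its size factors, limma 3.58.1 voom, no filter, 1 day alone, first lane alone, day 0 libraries counted as 1, a replicate block and leaving out each library. Lengths came from GENCODE vM21 and promoters from RefSeq.

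The members, gene lists and tests were chosen with earlier results of these data known. All 9 members are named. From the 7 pathway lists, the rule gave at day 0 up to 2 higher and 2 lower genes of smallest adjusted p, for the day comparison those of largest fold change, and for the interaction up to 2 of smallest adjusted p; the text names some of these. Lck and Cbl are named as family members of Fyn and Cblb. For each member the 2 genes of most similar profile are named. One gene of the pathway lists is not reported here.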

Additional observations from a re-analysis of the deposited data

Results flagged for a closer look

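For 6 of the 9 genes the Susd2-/- against WT log2 fold change differed between day 3 and day 0 by edgeR's interaction term, which compares the 2 differences directly. Over all genes tested, 6.88% were called lower and 6.60% higher in this term. The change was -0.76 for Ptpn22 (adjusted p = 1.93e-05), -0.68 for Txk (0.00195), -0.55 for Cblb (0.000582), -0.50 for Fyn (0.000937), -0.33 for Cd5 (0.0155) and -0.26 for Lat (0.048). For Ptpn22, Cblb, Fyn and Lat the larger genotype difference was at day 0, and for Txk and Cd5 it was at day 3. For Cd5 the difference was not called on either day (edgeR adjusted p = 0.139 at day 0 and 0.326 at day 3). The interaction call was lost in 10 of 15 alternative runs for Lat and in 8 of 15 for Cd5. Groups of 2 libraries are too small to look for a library that stands far from the rest of its group.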

How the results depend on the processing

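Over 675 values of single genes under the alternatives, 633 kept their side of the threshold (22 of these, called in neither fit, changed sign). Another 40 lost the call, 2 gained it (Tec and Cd5 at day 0 with that day's libraries alone) and none of the called values turned direction. The 675 include genes not called in the main fit, where 29 of 45 results were called. All 40 losses fell in the genotype comparisons and the interaction. At day 0 the call was lost in 8 of 16 alternatives for Plcg1, 7 for Lat and 1 for Fyn, and never for Ptpn22 or Cblb. Txk lost its day 3 call in 4 of 16. In the interaction Lat lost it in 10 of 15, Cd5 in 8, and Fyn and Cblb in 1 each. The 9 and 8 genes called with the peptide in WT and Susd2-/- were called in every alternative run. At day 0 the count of 5 genes became 3 without the filter, and Lat and Plcg1 were the 2 lost. It became 2 with the day 0 libraries of each genotype counted as 1, which leaves 1 sample against 1, and it was 3 to 5 on leaving out 1 library. The count over all genes there, 3792, became 725 with day 0 libraries counted as 1 and 2044 to 4410 without 1 library. At day 3 the call for Txk gave way to 0 genes with limma voom, with that day alone and with day 0 libraries counted as 1, and to 0 or 1 without 1 library. The 22 genes called over all genes at day 3 became 138 without the filter, 66 with DESeq2, 3 with that day alone, 1 with day 0 libraries counted as 1 and 6 to 392 without 1 library; the cause was not tested. The interaction count of 6 genes became 2 with day 0 libraries counted as 1 and 4 to 6 without 1 library, and over all genes 2164 became 364 and 1176 to 2498. Same-numbered libraries of the 2 genotypes did not deviate together (correlation 0.009 at day 0 and -0.01 at day 3), and with the replicate block the counts were 4, 1 and 5 of the 9 genes at day 0, at day 3 and in the interaction, and 3406, 17 and 1796 over all genes. Leaving out 1 library leaves a lone library in its group, which is then assumed to vary like the others. With 2 libraries a group, small differences such as those of Cd5 and Tec at day 0 have intervals that reach or nearly reach 0, and the number of libraries limits their precision.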

Other observations

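Txk and Tec lie in a stretch of chromosome 5 whose other genes did not all move with them. Among genes within 250 kilobases, Cnga1, a cyclic nucleotide-gated channel subunit, went from a mean of 25.8 CPM in WT day 0 to 0.338 in WT day 3 (log2 -6.24 ± 0.218, adjusted p = 3.1e-15), and Nipal1 from 14.6 to 1.55 (-3.24 ± 0.238, adjusted p = 2.64e-10). Fryl, on the far side of Tec, went from 390 to 110 CPM (-1.83 ± 0.0707, adjusted p = 1.47e-14). Slain2, the gene next to Tec, had 65.0 and 58.6 CPM and was not called (-0.15 ± 0.0914, adjusted p = 0.152), and Nfxl1 rose from 14.1 to 24.0 CPM (0.77 ± 0.121, adjusted p = 1.22e-05). Corin, at 0.800 CPM in WT day 0, was listed at 0 in all 4 day 3 libraries. At day 0 Nfxl1 was the only one of these 6 neighbours called between genotypes (0.44 ± 0.122, adjusted p = 0.0125), and at day 3 none of the 6 was. These genes were picked by position after the values of Txk and Tec had been seen.

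Plcg1 made up 93.8% of Plcg1 and Plcg2 transcripts per kilobase of exon in WT day 0, 95.7% in Susd2-/- day 0, 81.1% in WT day 3 and 82.7% in Susd2-/- day 3. Plcg2, an isoform best known from B cells, made up 6.15% in WT day 0 and 18.9% in WT day 3 (4.09% and 13.2% on principal transcript lengths). Its own level per kilobase of exon changed little, from 2.6 to 2.77 CPM in WT and from 2.07 to 2.57 in Susd2-/-. In WT Plcg1 went from 39.7 to 11.9 CPM per kilobase.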
